A study of Mus musculus with 30 samples.

Results

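Chemokine receptors other than Ccr7 were followed in bone marrow-derived dendritic cells (BMDCs), as 8 genes chosen by name from the 43629 of the count table: Ccr1, Ccr2, Cxcr2, Cxcr4, Cxcr5, Cx3cr1, Ackr3 and Ccrl2. All 8 were found by their Ensembl identifiers, and all 8 passed the filter on low counts in every comparison. Reads per gene were counted in 30 poly(A) RNA libraries from 10 numbered cultures, 5 WT and 5 labelled Cacnb3-KO (written Cacnb3-/- here), each with 3 libraries, named by their last field ctrl, 0p5h and 24h. WT mice were C57BL/6J and Cacnb3-/- mice C57BL/6N, so genotype and substrain cannot be told apart. Bone marrow came from young adult mice of both sexes. It was grown with GM-CSF, and the cells were cultured for 6 days. They were then left unstimulated or pulsed with 500 µM ATP for 30 min. The labels have pulsed cells harvested directly or after 24 h, while the study's text counts the early harvest from after the pulse, so its exact time is not settled here. The labels do not say whether each number is 1 animal or several, so p-values measure the spread between these cultures.

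Groups follow the library names, because the treatment field disagrees with them. Libraries named ctrl carry the field 30min_ATP and those named 0p5h the field vehicle, while both sources give 24 h of ATP for those named 24h. Which of the first 2 sets was unstimulated is therefore not settled here, and a change is given as ctrl to 0p5h without naming it a response to ATP. The genotype comparisons, made inside each set, are the same either way.

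Total counts ranged from 8237393 to 32164225 per library, with a median of 19556920. The median was lowest in the Cacnb3-/- libraries named 24h, at 11986891. Cacnb3 itself was counted in every library labelled Cacnb3-/-, at 572.9 to 1331 CPM against 1035 to 2143 CPM in WT. CPM is the read count relative to the library size scaled by edgeR's TMM method. A count over the whole gene does not show whether the reads fall in the deleted part, so the label was not checked by it, and the groups are called by their labels. Of 10 dendritic cell markers, 9 were counted in every library, with Itgax at 76.7 to 459 CPM and H2-Ab1 at 1717 to 6121 CPM. Cd209a did not exceed 0.63 CPM and had no read in 3 libraries.

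Chemokine receptors are G protein-coupled receptors that read gradients of chemokines and steer leukocytes. Immature myeloid cells carry receptors for inflammatory chemokines, such as Ccr1 and Ccr2, while maturing dendritic cells are known to lower these and to raise Ccr7, which guides them to lymph nodes. Ackr3 and Ccrl2 are atypical: they bind ligands without the usual G protein signal. Ackr3 takes up Cxcl12, the ligand of Cxcr4, and Ccrl2 holds chemerin at the cell surface and offers it to the receptor Cmklr1. Cxcr2 is the neutrophil receptor for Cxcl1 and related chemokines, Cxcr5 the receptor for Cxcl13 that leads cells to B cell follicles, and Cx3cr1 the receptor for fractalkine, a mark of monocytes and macrophages.

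Divided by exon length, the receptors fell into a wide order, with Cxcr4 at the top. Its mean over the 30 libraries was 211 RPKM (CPM per kilobase of exon), with a range of 133 to 308 RPKM. Ccrl2 followed at 62.2 RPKM (9.62 to 231), and then Ccr1 at 35.7 RPKM (15.7 to 71.7) and Ccr2 at 16.4 RPKM (1.70 to 52.8). Cx3cr1 averaged 4.58 RPKM, Ackr3 2.78 RPKM, Cxcr5 2.07 RPKM and Cxcr2 1.14 RPKM. The ranges of neighbours in this order overlapped in each case. For comparison, Ccr7 averaged 2007 RPKM. The 4 low receptors rested on few reads in their lowest libraries, 35 for Cx3cr1, 28 for Cxcr5, 16 for Cxcr2 and 11 for Ackr3. Not all of these libraries were shallow. The 11 reads of Ackr3 came from WT culture p974s864 at 24h, with 19915605 counts.

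**Figure D1:**
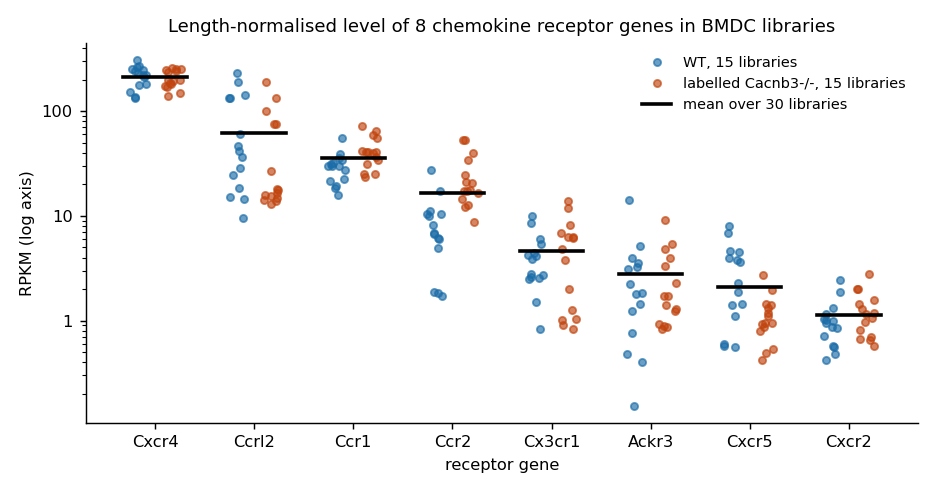
Level of each receptor gene in RPKM (log axis) in the 15 WT and the 15 Cacnb3-/- libraries. Each point is a library and the bar is the mean over 30 libraries. Cxcr4 spans 133 to 308 RPKM, while Ackr3 spans 0.154 to 14.3 RPKM.

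On GRCm38, 3 of the genes lie on chromosome 1 and 5 on chromosome 9. Cxcr2 (ENSMUSG00000026180) spans chr1:74153989-74161246 on the forward strand, Ackr3 (ENSMUSG00000044337) chr1:90203980-90216751 on the forward strand and Cxcr4 (ENSMUSG00000045382) chr1:128588199-128592293 on the reverse strand. Cxcr5 (ENSMUSG00000047880) spans chr9:44511788-44556391, Ccrl2 (ENSMUSG00000043953) chr9:111054835-111057270, Cx3cr1 (ENSMUSG00000052336) chr9:119901616-120068283 and Ccr1 (ENSMUSG00000025804) chr9:123962126-123968692, all on the reverse strand. Ccr2 (ENSMUSG00000049103) spans chr9:124101950-124113557 on the forward strand. No exon of these 8 genes overlapped an exon of another gene in the table, so their reads are not shared with a neighbour.

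Promoters are shown for Ccrl2 and Ackr3, the 2 members with called changes between sets, and for Cxcr4, which was not called in any comparison. Each is the 250 bases before a RefSeq start on GRCm38.p6, written 5′ to 3′ along the gene. Ccrl2 has 3 RefSeq starts, of which the most upstream was taken (chr9:111057519-111057768, reverse strand). Ackr3 is from chr1:90203730-90203979 on the forward strand, and Cxcr4 from chr1:128592300-128592549 on the reverse strand. Capitals mark matches to motifs searched on both strands.
Ccrl2: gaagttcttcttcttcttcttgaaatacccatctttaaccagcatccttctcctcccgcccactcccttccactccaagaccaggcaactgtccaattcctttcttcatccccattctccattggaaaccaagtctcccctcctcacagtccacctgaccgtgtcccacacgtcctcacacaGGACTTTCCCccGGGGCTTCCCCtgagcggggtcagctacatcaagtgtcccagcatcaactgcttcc
Ackr3: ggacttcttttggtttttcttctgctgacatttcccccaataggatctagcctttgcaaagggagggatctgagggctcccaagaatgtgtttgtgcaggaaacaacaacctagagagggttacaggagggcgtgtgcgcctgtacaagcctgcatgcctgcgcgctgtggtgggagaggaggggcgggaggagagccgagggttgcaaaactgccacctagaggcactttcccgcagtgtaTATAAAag
Cxcr4: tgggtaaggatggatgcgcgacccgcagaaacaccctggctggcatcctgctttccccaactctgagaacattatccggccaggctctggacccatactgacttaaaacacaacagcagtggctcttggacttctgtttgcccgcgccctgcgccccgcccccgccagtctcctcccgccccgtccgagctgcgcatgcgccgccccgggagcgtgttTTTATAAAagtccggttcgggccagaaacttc
The capitals of Ccrl2 are 3 matches to an NF-kB site (GGG and CC with 5 free bases between), of which 2 overlap, between 68 and 46 bases before the start. This loose motif was found in 45.8% of 32817 promoter windows of the same length. The windows of the Ccrl2 starts at chr9:111057270 and chr9:111057244 held no match to any motif searched. The former is also the start of the counted gene. The capitals of Ackr3 and Cxcr4 are matches to the letters of a TATA box (TATAAA, in 12.4% of windows). The match lies 8 to 3 bases before the start in Ackr3 and 30 to 25 bases before it in Cxcr4. In Cxcr4 a match on the other strand overlaps it. None of the 3 windows shown held a CRE (TGACGTCA, 1.55% of windows), an AP-1 site (TGANTCA, 6.75%), an NBRE (AAAGGTCA, 1.34%), an EGR site (GCGTGGGCG, 0.536%) or a CArG box (1.47%). Of the 8 genes, 7 had a window in the RefSeq table, and Ccr1, Cxcr2 and Cx3cr1 held 1 NF-kB match each. A match is a string of letters and does not show binding.

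Of the 8 members, the atypical receptors changed most from ctrl to 0p5h and from 0p5h to 24h. Ccrl2 rose from ctrl to 0p5h and fell again by 24h in both genotypes. Ackr3 did so in 5 of 5 cultures of each genotype. It was called in Cacnb3-/- BMDCs, and in WT once libraries were paired by culture number. In bulk RNA, a change in the number of cells of a type and in RNA per cell cannot be told apart. Calls needed at least a 2-fold change and, in edgeR's quasi-likelihood test, a Benjamini-Hochberg adjusted p (over all genes tested) below 0.05. In WT, 1 of 8 members, Ccrl2, was called from ctrl to 0p5h, where 0.176% of 13085 tested genes were called. In Cacnb3-/- BMDCs, 2 of 8, Ccrl2 and Ackr3, were called, where 0.29% of 12750 genes were. The members were chosen with earlier results of these data known, so these shares do not test the family. From 0p5h to 24h, Ccrl2 was called lower in WT (1 of 8 members, 0.639% of 12830 genes), and Ccrl2 and Ackr3 in Cacnb3-/- BMDCs (2 of 8, 0.66% of 12730 genes). The median log2 fold change of the 8 members from ctrl to 0p5h was 0.18 in WT and 0.14 in Cacnb3-/- BMDCs, against 0.01 and -0.01 over all genes tested. For 0p5h to 24h it was -0.75 and -0.11, against 0.01 and 0.00. Between ctrl and 0p5h the groups did not overlap in CPM for 1 of 8 members in WT and 3 of 8 in Cacnb3-/- BMDCs, against 1.78% and 1.25% of all genes. Between 0p5h and 24h they did not for 2 of 8 in each genotype, against 3.69% and 3.21%.

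Ccrl2 was the member with the largest change in both genotypes. In WT cultures p974s846, p974s850, p974s855, p974s856 and p974s864, in this order, it stood at 97.2, 31.9, 127, 77.6 and 39.2 CPM in the ctrl libraries. In the 0p5h ones it stood at 302, 280.0, 398, 487 and 283 CPM, and in the 24h ones at 60.9, 30.5, 87.1, 52.2 and 20.3 CPM. Every library named 0p5h lay above every library of the other 2 sets, and the rise within a culture was 3.11-fold to 8.77-fold. The Cacnb3-/- cultures are given in the order p974s843, p974s851, p974s852, p974s853, p974s865. Their Ccrl2 levels were 56.0, 32.97, 29.4, 33.4 and 38.0 CPM in the ctrl libraries. The same cultures had 159, 282, 212, 159 and 404 CPM in the 0p5h ones, and 29.9, 31.5, 34.9, 37.2 and 27.3 CPM in the 24h ones. Again the 0p5h libraries lay apart from both other sets, with a rise of 2.83-fold to 10.6-fold within a culture.

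The log2 fold change of Ccrl2 from ctrl to 0p5h was 2.25 in WT (standard error, SE, 0.36, edgeR adjusted p = 0.0308) and 2.66 in Cacnb3-/- BMDCs (SE 0.28, edgeR adjusted p = 0.00117). The change from 0p5h to 24h was -2.80 (SE 0.36, edgeR adjusted p = 0.00282) and -2.91 (SE 0.26, edgeR adjusted p = 0.00022). Between ctrl and 24h the difference was -0.56 in WT and -0.24 in Cacnb3-/- BMDCs, and neither was called (edgeR adjusted p = 0.743 and 0.501). These fits did not pair libraries by culture, and Ccrl2 was lower at 24h in 5 of 5 WT and 3 of 5 Cacnb3-/- cultures. The WT call from ctrl to 0p5h was lost when any 1 of the 5 cultures was left out, with log2 fold changes of 2.103 to 2.47 and adjusted p from 0.0691 to 0.289 in edgeR. Of 13 alternatives 8 made this call, and the 5 that did not were these leave-outs. The other 3 calls of Ccrl2 were made without any 1 culture as well.

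Ackr3 had the same order of sets at a lower level. In the WT cultures in the order above, it stood at 6.07, 2.52, 7.48, 17.1 and 1.62 CPM in the ctrl libraries and at 11.9, 10.3, 13.2, 47.7 and 4.81 CPM in the 0p5h ones. In the 24h ones it stood at 4.12, 1.34, 5.94, 10.9 and 0.52 CPM. WT culture p974s856 was the highest in all 3 sets and p974s864 the lowest, so the sets overlapped although Ackr3 was higher at 0p5h in 5 of 5 cultures. In the Cacnb3-/- cultures it stood at 5.70, 4.75, 4.17, 2.76 and 7.70 CPM, then at 18.2, 16.2, 13.2, 11.1 and 30.8 CPM, and then at 5.72, 3.11, 2.90, 4.32 and 2.97 CPM. Here every library named 0p5h lay above every library of the other sets, with a rise of 3.16-fold to 4.01-fold within a culture.

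In Cacnb3-/- BMDCs the log2 fold change of Ackr3 was 1.81 from ctrl to 0p5h (SE 0.31, edgeR adjusted p = 0.0303) and -2.25 from 0p5h to 24h (SE 0.31, edgeR adjusted p = 0.00454). In WT the values were 1.34 (SE 0.70, edgeR adjusted p = 0.9997) and -1.97 (SE 0.75, edgeR adjusted p = 0.336). Blocking on the culture number (replicate block), edgeR also called Ackr3 in WT, at 1.32 (SE 0.14, adjusted p = 0.000282) and -1.97 (SE 0.25, adjusted p = 0.00176), which gave 2 of 8 members in each comparison. With that block, 0.581% of all genes were called in WT from ctrl to 0p5h and 1.78% from 0p5h to 24h. The Cacnb3-/- rise of Ackr3 was not called with all 30 libraries in one fit (adjusted p = 0.404) or without culture p974s843, p974s851, p974s852 or p974s853 (adjusted p from 0.0715 to 0.260 in edgeR). Its fall was not called with all 30 libraries in one fit (adjusted p = 0.0525) or without culture p974s851 (adjusted p = 0.0529).

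**Figure D2:**
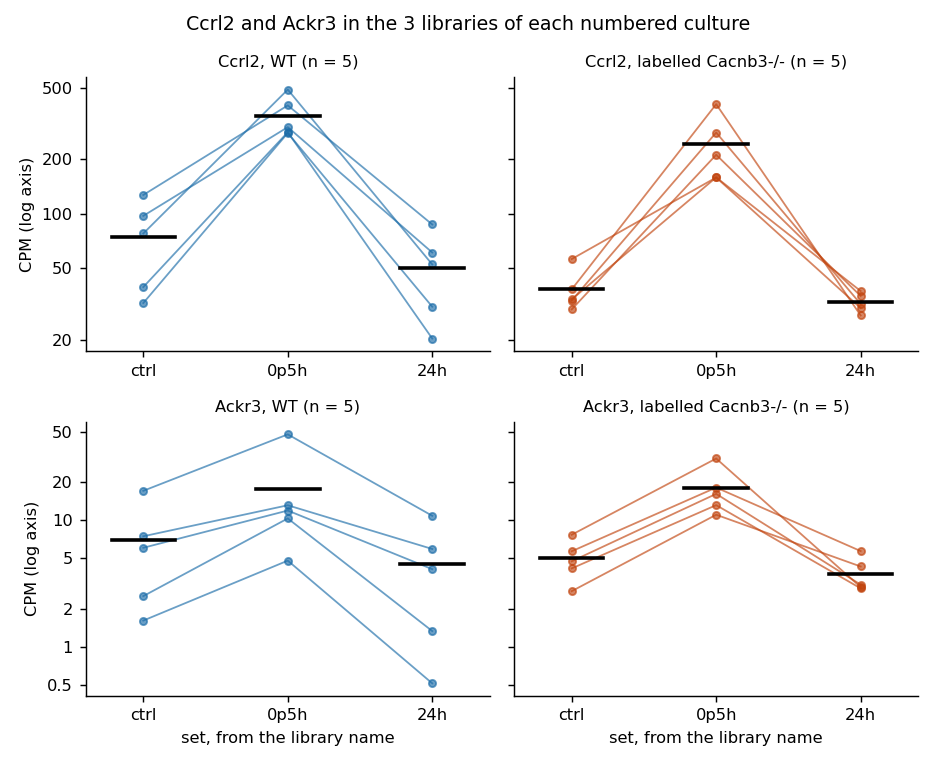
CPM (log axis) of Ccrl2 and Ackr3 by set (ctrl, 0p5h, 24h) and genotype. Thin lines join the 3 libraries of a culture number and black bars are group means. All 10 lines peak at 0p5h in both genes, and the WT lines of Ackr3 are spread from 4.81 to 47.7 CPM there.

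For Ccrl2 and Ackr3 the genotypes were not shown to differ in these changes. The unblocked interaction of genotype and set, which compares the change in Cacnb3-/- with that in WT BMDCs, called 0 of 8 members and 0% of 13465 genes from ctrl to 0p5h, 0% of 13536 from ctrl to 24h and 0% of 13424 from 0p5h to 24h in edgeR. DESeq2 called 0 genes in each of the 3 as well. Unadjusted, 0, 2 and 1 of the 8 members had a p under 0.05 in edgeR, as had 30, 658 and 789 of all genes. For Ccrl2 the interaction from ctrl to 0p5h was 0.43 on the log2 scale (SE 0.46), and for Ackr3 it was 0.48 (SE 0.80), with an edgeR adjusted p of 0.99996 for each. Ccrl2 averaged 74.6 ± 39.8, 350.1 ± 90.7 and 50.2 ± 26.3 CPM (SD, n = 5) in WT libraries named ctrl, 0p5h and 24h, and 38.0 ± 10.52, 243 ± 103 and 32.2 ± 3.96 CPM in Cacnb3-/- libraries. The ranges of the genotypes overlapped in each set.

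Between ctrl and 24h no member was called in either genotype in the fit without a block. In WT, Ccr1, Ccr2, Ackr3 and Ccrl2 were each lower at 24h in 5 of 5 cultures, and the other members in 3 to 4. In Cacnb3-/- BMDCs these genes were lower in 2 to 3 of 5. Over 13 alternatives in edgeR or DESeq2, their lowest adjusted p in WT was 0.000275, 0.0396, 0.0441 and 0.0243, and none made a call. Their highest ran from 0.574 to 0.995. The groups of 1 of 8 members in WT (Ccr1) and 0 of 8 in Cacnb3-/- BMDCs did not overlap, against 1.94% and 1.21% of all genes. Over all genes, edgeR called 0.0152% of 13176 in WT and 0% of 12452 in Cacnb3-/- BMDCs. In each genotype 1 of 8 members had an unadjusted p under 0.05, Ccr1 in WT and Cxcr5 in Cacnb3-/- BMDCs. DESeq2 called 0 of 8 members in both, with 30 and 48 genes called over all. The median log2 fold change of the 8 members was -0.63 in WT and 0.07 in Cacnb3-/- BMDCs, against 0.00 and -0.01 over all genes tested.

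Ccr1 is a receptor for Ccl3, Ccl5 and related chemokines, and Ccr2 for Ccl2. Both were higher in the Cacnb3-/- than in the WT libraries named 24h without overlap, but edgeR called neither. In the WT cultures, in the order above, Ccr2 stood at 31.2, 44.1, 10.9, 39.3 and 66.1 CPM in the 24h libraries. In the Cacnb3-/- cultures it stood at 337, 110.2, 81.3, 131 and 217 CPM. For Ccr1 the WT values were 61.5, 55.1, 64.1, 52.7 and 44.4 CPM, and the Cacnb3-/- values were 203, 114, 70.6, 116 and 88.5 CPM. The lowest Cacnb3-/- library thus stood above the highest WT library for both genes, with culture p974s843 the highest for each. These were 2 of 8 members whose genotypes did not overlap at 24h, where 6.51% of the 12706 genes tested did not. At ctrl and 0p5h it was 0 of 8, against 1.93% and 2.05% of genes.

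At 24h the log2 ratio of Cacnb3-/- over WT was 2.21 for Ccr2 (SE 0.47, edgeR adjusted p = 0.0515) and 1.10 for Ccr1 (SE 0.25, edgeR adjusted p = 0.0515). This adjusted p was the lowest among all 12706 genes tested, and other genes such as Ccr7 and Ccl5 shared it. It therefore does not set these receptors apart as near a call. By edgeR 0 of 8 members were called, as were 0% of 12706 genes, with 2 members and 4877 genes at an unadjusted p under 0.05. DESeq2 called 2 of 8 members, Ccr2 (adjusted p = 0.000764) and Ccr1 (adjusted p = 0.00353), where it called 4.74% of 12797 genes. Both were also called in edgeR with all 30 libraries in one fit (adjusted p = 0.00989 for Ccr2 and 0.00589 for Ccr1), without the low-count filter, and when either p974s864 (WT) or p974s865 (Cacnb3-/-) was left out. After removal of a GC content trend per library, Ccr2 stood at 1.68 and Ccr1 at 0.48 on the log2 scale, and neither was called (edgeR adjusted p = 0.132 and 0.256).

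Ccr2 was also higher on average in Cacnb3-/- BMDCs in the other sets, where the groups overlapped. In the ctrl libraries it reached 72.4 ± 61.7 in WT against 160.5 ± 99.5 CPM in Cacnb3-/- BMDCs (SD, n = 5), which is a difference on the log2 scale of 1.16 (SE 0.57, edgeR adjusted p = 0.326). In the 0p5h ones it reached 56.0 ± 35.9 and 127 ± 80.4 CPM (log2 fold change 1.20, SE 0.52, edgeR adjusted p = 0.291). Without Cacnb3-/- culture p974s865 the 2 values were 0.70 and 0.79, and without WT culture p974s864 they were 1.79 and 1.59. WT culture p974s855 stayed at 10.9 to 12.1 CPM in all 3 sets, while WT culture p974s864 held 174 CPM at ctrl and Cacnb3-/- culture p974s865 held 337 CPM. The spread among cultures of 1 genotype was thus wide. The order of cultures also changed with the set, since p974s843 stood at 135 CPM at ctrl and 337 CPM at 24h, above p974s865. Its 24h library was the shallowest of all, at 8237393 counts. Its ctrl and 24h libraries did not shift alike around their group means (r = 0.0746), so this pair is less sure.

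Ccr1 differed less between the genotypes at ctrl, with 92.2 ± 11.9 in WT against 117 ± 23.2 CPM in Cacnb3-/- BMDCs (SD, n = 5; log2 fold change 0.36, SE 0.14, edgeR adjusted p = 0.270). At 0p5h it reached 103 ± 32.02 and 120.4 ± 53.5 CPM (log2 fold change 0.24, edgeR adjusted p = 0.698). In WT, Ccr1 was lower at 24h than at 0p5h in 5 of 5 cultures, at -0.89 on the log2 scale (SE 0.18, edgeR adjusted p = 0.0442), a change that stayed under 2-fold. The WT libraries named 24h lay below all WT libraries of the other sets. The same change in Cacnb3-/- BMDCs was -0.01 (SE 0.34, edgeR adjusted p = 0.991), higher in 2 and lower in 3 cultures. The interaction between 0p5h and 24h was 0.87 for Ccr1 (SE 0.41) and 1.01 for Ccr2 (SE 0.74), with edgeR adjusted p = 0.680 and 0.699.

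**Figure D3:**
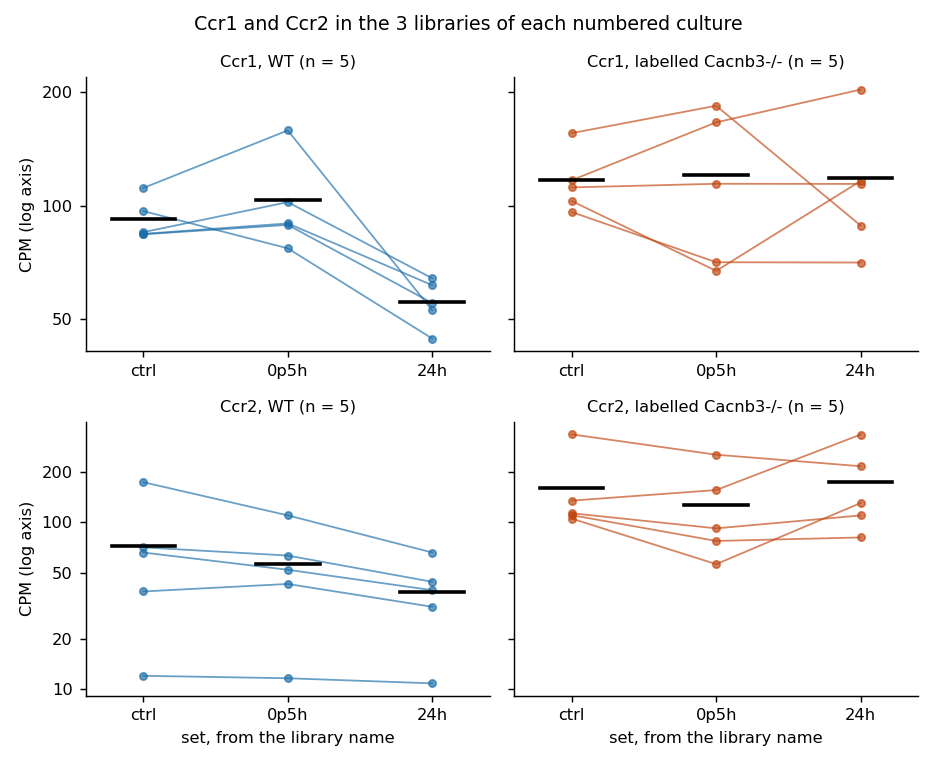
CPM (log axis) of Ccr1 and Ccr2 by set and genotype, with lines joining the 3 libraries of a culture number and black bars at group means. At 24h Ccr1 lies at 44.4 to 64.1 CPM in WT and at 70.6 to 203 CPM in Cacnb3-/- libraries, and Ccr2 at 10.9 to 66.1 and at 81.3 to 337 CPM.

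Markers of other myeloid cells were set beside Ccr1 and Ccr2 in the 24h libraries. The 11 monocyte and macrophage markers summed to 1135 to 2827 CPM in WT and 1044 to 2679 CPM in Cacnb3-/- libraries, so their ranges overlapped. The 12 neutrophil markers summed to 201 to 818 CPM and 436 to 834 CPM. The list of mature migratory dendritic cells had 10 genes, Ccr7 and Cacnb3 among them. It summed to 20690 to 27840 CPM in WT and 10960 to 18130 CPM in Cacnb3-/- libraries, without overlap. At ctrl (14090 to 27060 and 10900 to 15870 CPM) and 0p5h (17010 to 29070 and 11600 to 19990 CPM) these sums overlapped. Ccl22, Ccr7 and Fscn1 were its highest genes, with means of 6447, 3970 and 3857 CPM. Over all sets Cd83 (1792 in WT, 1849 CPM in Cacnb3-/-) and Socs2 (257 and 306 CPM) averaged higher in Cacnb3-/- libraries, and the others in WT. The monocyte and macrophage markers also went both ways over all sets. Csf1r, Ly6c2 (54.9 in WT, 27.5 CPM in Cacnb3-/-), Fcgr1 and Cd14 averaged higher in WT. The others of that list, such as Apoe (414 and 788 CPM) and Mrc1 (27.2 and 67.5 CPM), averaged higher in Cacnb3-/- libraries. Every gene of these 3 lists was counted in each library, save Elane, a granule protease, which had no read in 3 of the 30. The part of these markers in the difference of Ccr1 and Ccr2 was not tested.

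Cxcr5 was lower on average in the Cacnb3-/- than in the WT libraries named ctrl and 0p5h, and near WT at 24h. In the WT cultures, in the order above, it stood at 10.8, 3.96, 19.6, 10.2 and 1.62 CPM in the ctrl libraries. The same cultures had 11.1, 4.02, 22.3, 12.7 and 1.57 CPM at 0p5h and 5.30, 3.12, 12.9, 6.40 and 1.69 CPM at 24h. The Cacnb3-/- cultures had 1.38, 2.45, 4.09, 2.25 and 1.18 CPM at ctrl, 3.15, 2.65, 2.68, 3.36 and 1.51 CPM at 0p5h, and 3.99, 3.71, 7.75, 5.50 and 2.60 CPM at 24h. WT culture p974s864 was as low as the Cacnb3-/- cultures in all sets, so the genotypes overlapped. Between ctrl and 24h Cxcr5 was higher in 5 of 5 Cacnb3-/- cultures and lower in 4 of 5 WT cultures.

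The log2 ratio of Cxcr5 in Cacnb3-/- over WT was -2.02 at ctrl (SE 0.58, adjusted p = 0.243), -1.94 at 0p5h (SE 0.56, adjusted p = 0.251) and -0.33 at 24h (SE 0.47, adjusted p = 0.633), all from edgeR. The 24h value turned to 0.21 without WT culture p974s855. By edgeR 0 of 8 members were called at ctrl or at 0p5h, as were 0% of 13022 and 0% of 12806 genes, with 3 and 2 members at an unadjusted p under 0.05. DESeq2 called 1 of 8, Cxcr5, in each (adjusted p = 0.0195 at ctrl and 0.0361 at 0p5h), where it called 1.02% and 0.588% of genes. Without WT culture p974s864, edgeR called it at ctrl as well (log2 fold change -2.30, adjusted p = 0.0261). The change from ctrl to 24h was -0.63 in WT (adjusted p = 0.807) and 1.06 in Cacnb3-/- BMDCs (adjusted p = 0.444), with an interaction of 1.70 (SE 0.79, adjusted p = 0.753), all from edgeR without a block. With the replicate block, edgeR called 1 of 8 members, Cxcr5, from ctrl to 24h in Cacnb3-/- BMDCs (1.07, SE 0.19, adjusted p = 0.0137), where 1.11% of all genes were called, and in the interaction (1.64, SE 0.24, adjusted p = 0.0125), where 0.118% were. Of the 5 Cacnb3-/- pairs of ctrl and 24h libraries with the same number, that of p974s843 did not pass the check of pairing (r = 0.0746), so the block is less sure here. The 7 B cell markers, set beside Cxcr5 because B cells express it, summed to no more than 5.31 CPM in any library, and none of the 7 exceeded 1.72 CPM.

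With the 3 libraries of each culture summed, edgeR called 0 of 8 members and 0% of 14833 genes between the genotypes, with 4 members at an unadjusted p under 0.05. These were Cxcr5 at -1.49 (SE 0.53, adjusted p = 0.147), Ccr2 at 1.39 (SE 0.51, adjusted p = 0.150), Ccrl2 at -0.53 (SE 0.23, adjusted p = 0.195) and Ccr1 at 0.43 (SE 0.19, adjusted p = 0.198) on the log2 scale. DESeq2 called Cxcr5 (adjusted p = 0.0421) among 1.74% of 14418 genes. Without WT culture p974s864, edgeR called Cxcr5 (-1.76, adjusted p = 0.0412) and Ccr2 (1.83, adjusted p = 0.0479). The median log2 fold change of the 8 members was 0.07, against 0.02 over all genes tested. In the sets named ctrl, 0p5h and 24h it was -0.06, 0.14 and 0.21, against 0.03, 0.02 and 0.01.

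**Figure D4:**
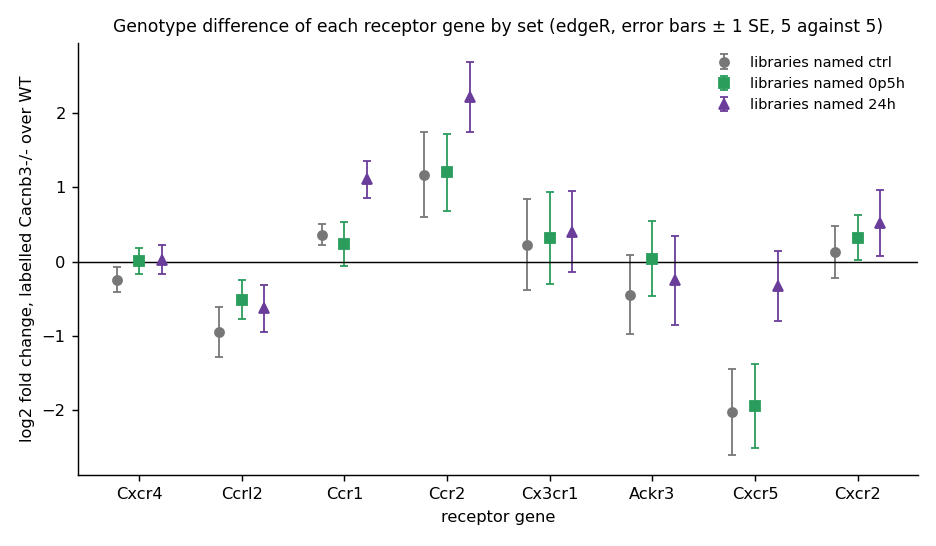
Log2 fold change from WT to Cacnb3-/- of each receptor gene at ctrl, 0p5h and 24h, with error bars of 1 standard error (edgeR, 5 against 5). Ccr2 at 24h (2.21) and Cxcr5 at ctrl (-2.02) and 0p5h (-1.94) lie farthest from 0, and none of the 24 values was called.

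Cxcr4, the Cxcl12 receptor, was the most even member. It spanned 241 to 557 CPM over the 30 libraries, a ratio of 2.31 between the highest and the lowest, against 92.4 for Ackr3. In the WT ctrl libraries it stood at 418, 326, 452, 404 and 245 CPM, and in the 0p5h ones at 475, 386, 557, 489 and 277 CPM. The Cacnb3-/- libraries held 326, 313, 335, 308 and 250.2 CPM at ctrl and 459, 430, 467, 452 and 360 CPM at 0p5h. In each of the 10 cultures Cxcr4 was higher at 0p5h than at ctrl, and in Cacnb3-/- BMDCs these 2 sets did not overlap. The log2 fold change was 0.26 in WT (SE 0.20, edgeR adjusted p = 0.9997) and 0.49 in Cacnb3-/- BMDCs (SE 0.13, edgeR adjusted p = 0.376). These p-values do not pair libraries by culture. Within a culture the log2 ratio lay between 0.177 and 0.303 for WT, and between 0.458 and 0.554 for Cacnb3-/-. Over 13 alternatives in edgeR or DESeq2, the lowest adjusted p was 0.00539 for WT and 0.00191 for Cacnb3-/- BMDCs. The highest were 0.999995 and 0.9996. None made a call, and the change stayed under 2-fold. Each Cacnb3-/- culture rose more than each WT culture. With 1 culture left out, the interaction of genotype and set from ctrl to 0p5h was 0.23 to 0.27 for Cxcr4 on the log2 scale. Its edgeR adjusted p was at least 0.9999 there. With the replicate block, edgeR called 0 of 13465 genes in this interaction. At 24h the group means were 370 ± 87.1 in WT against 372 ± 70.9 CPM in Cacnb3-/- BMDCs (SD, n = 5), which is a difference on the log2 scale of 0.02 (SE 0.20).

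Cx3cr1 varied more between cultures than between groups. In WT it stood at 15.3, 20.2, 9.52, 37.5 and 16.6 CPM in the ctrl libraries and at 9.70, 5.57, 10.3, 22.3 and 3.10 CPM in the 24h ones. In Cacnb3-/- BMDCs it stood at 22.8, 30.9, 3.86, 4.75 and 52.2 CPM and at 23.4, 14.2, 3.08, 7.56 and 18.1 CPM. Cacnb3-/- cultures p974s852 and p974s853 thus held 3.08 to 7.56 CPM in all sets, while WT culture p974s856 held 22.3 to 37.5 CPM. The same 2 Cacnb3-/- cultures had the lowest sums of monocyte and macrophage markers of their genotype in each set. In WT, culture p974s855 had the lowest sum in each set and the lowest Cx3cr1 at ctrl and 0p5h. At 24h the lowest WT Cx3cr1 was in p974s864, with a sum of 1404 CPM against 1135 CPM in p974s855. The part of these markers in the level of Cx3cr1 was not tested. The log2 ratio of Cx3cr1 in Cacnb3-/- over WT was 0.23, 0.31 and 0.40 in the 3 sets, with SEs of 0.61, 0.62 and 0.54 (edgeR adjusted p = 0.868, 0.818 and 0.605). Without Cacnb3-/- culture p974s865 it turned to -0.33 at ctrl and -0.20 at 0p5h, and at 24h it ran from 0.12 without Cacnb3-/- culture p974s843 to 0.90 without WT culture p974s856. Without p974s856 it was 0.59 at ctrl and 0.71 at 0p5h. The change of Cx3cr1 from ctrl to 24h was -0.97 in WT (SE 0.48) and -0.79 in Cacnb3-/- BMDCs (SE 0.68), with edgeR adjusted p = 0.618 and 0.553.

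Cxcr2 was the lowest member per length and rested on 16 to 168 reads. It averaged 3.49 ± 1.39, 2.23 ± 0.82 and 3.56 ± 2.35 CPM in the WT libraries named ctrl, 0p5h and 24h, and 3.79 ± 1.66, 2.77 ± 0.86 and 4.94 ± 2.46 CPM in the Cacnb3-/- libraries (SD, n = 5). It was lower at 0p5h than at ctrl in 9 of 10 cultures. The log2 fold changes were -0.63 in WT (SE 0.32) and -0.45 in Cacnb3-/- BMDCs (SE 0.33), neither of them called (edgeR adjusted p = 0.9997 and 0.9999). These fits also left the cultures unpaired. Over 13 alternatives in edgeR or DESeq2, the lowest adjusted p was 0.0203 for WT and 0.227 for Cacnb3-/- BMDCs, and none made a call. Between 0p5h and 24h the log2 fold changes were 0.67 in WT (SE 0.42, edgeR adjusted p = 0.621) and 0.87 in Cacnb3-/- BMDCs (SE 0.35, edgeR adjusted p = 0.245). All 6 groups of Cxcr2 overlapped with their neighbours in the order of means. The same held for Cxcr4, Cxcr5, Cx3cr1, Ackr3 and Ccr2. For Ccr1 the WT libraries named 24h lay below the group next to them, and for Ccrl2 all 0p5h libraries lay above those of the other sets.

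**Figure D5:**
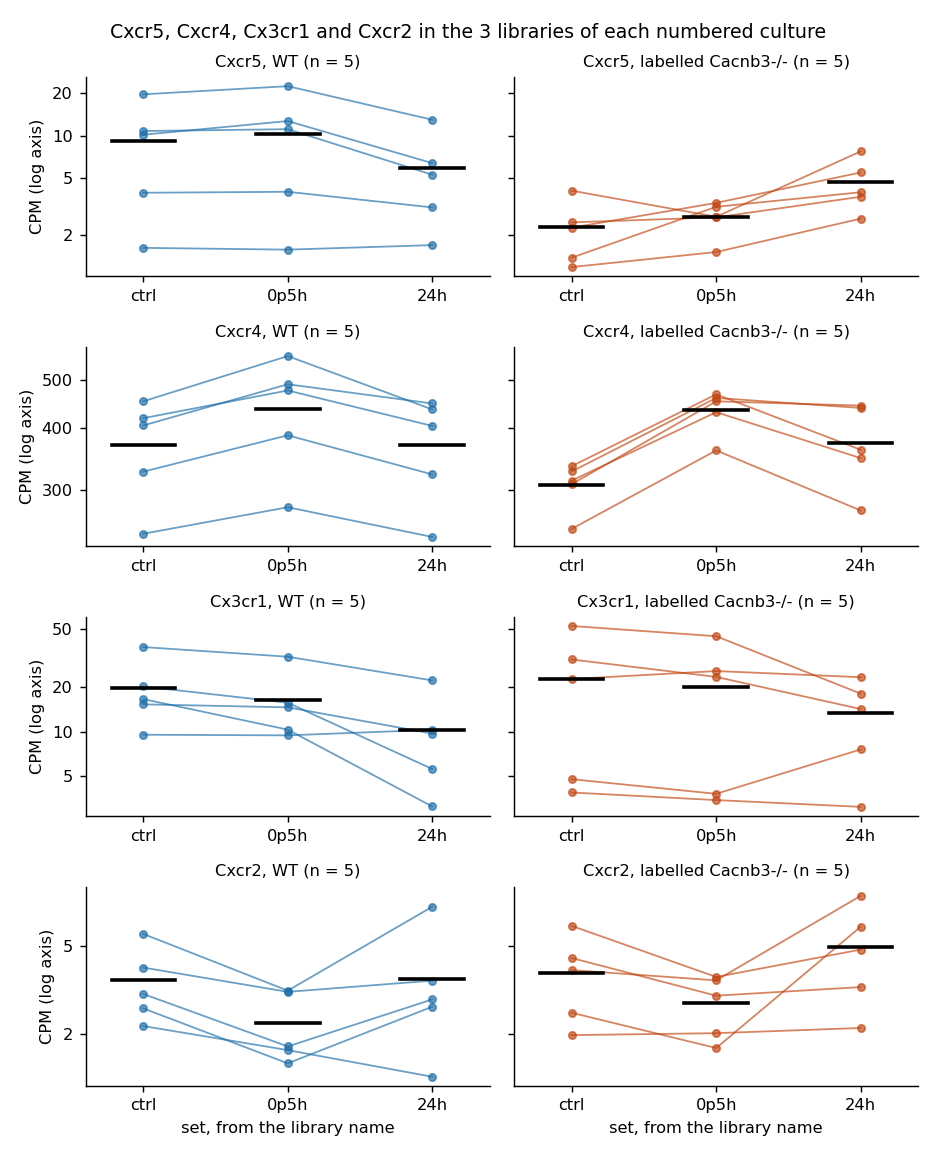
CPM (log axis) of Cxcr5, Cxcr4, Cx3cr1 and Cxcr2 by set and genotype, with lines joining the 3 libraries of a culture number and black bars at group means. Lines of Cxcr5 in Cacnb3-/- cultures all end higher at 24h (2.60 to 7.75 CPM) than at ctrl (1.18 to 4.09 CPM).

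The genes whose pattern was most like each receptor are given by Pearson's r of log2(CPM + 0.5) over the 30 libraries. The 30 libraries share cultures and depth, so r is a description. For Ccrl2 these were Ets2 (0.972), Dusp1 (0.953) and Nfil3 (0.95), and for Ackr3 Rnf145 (0.94), Il1b (0.863) and Rgcc (0.862). Between Ccrl2 and Ackr3 themselves r was 0.806. For Ccr1 they were Emb (0.91), Bst1 (0.891) and Tcp11l2 (0.887), and for Ccr2 Asb4 (0.946), Clec4a2 (0.942) and Ptpn22 (0.939). For Cxcr5 they were Plat (0.941), Col27a1 (0.933) and Ralgps1 (0.909), and for Cx3cr1 F10 (0.932), Spata13 (0.922) and C1ra (0.916). Cxcr4 was most like Smim3 (0.866), Il6 (0.859) and Auh (0.845), and Cxcr2 most like Rwdd2b (0.74), S100a8 (0.718) and Stfa2l1 (0.711). Of pairs of members, Ccr2 and Cxcr5 had the lowest r, at -0.774, and Ccr2 and Ccr7 had -0.762.

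The other receptors of the family were mostly silent. Of 17, 13 averaged under 1 CPM and 4 to 9 could be tested in a comparison, and edgeR called 0 of them in every comparison, with 0 to 4 at an unadjusted p under 0.05. DESeq2 called Ccr4 between the genotypes at ctrl and with libraries summed, and Ccr6 at 24h, and no other. Ccr7 was the highest, at 5141 ± 970.5 in WT against 2927 ± 835 CPM in Cacnb3-/- libraries named 24h (SD, n = 5). Its groups did not overlap there, and the log2 difference was -0.80 (SE 0.23, edgeR adjusted p = 0.0515). At ctrl the value was -0.56 (edgeR adjusted p = 0.245) and at 0p5h -0.50 (edgeR adjusted p = 0.262). From ctrl to 0p5h it was 0.23 in WT and 0.27 in Cacnb3-/- BMDCs (edgeR adjusted p = 0.9997 and 0.9999).

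Of 21 chemokines and other ligands listed for these receptors, 13 to 16 were tested, and without a block 2 were called in a comparison, each higher at 0p5h than at ctrl. Cxcl2, a ligand of Cxcr2, rose in WT from 25.8 ± 5.76 to 51.3 ± 5.31 CPM (SD, n = 5; log2 fold change 1.01, SE 0.14, edgeR adjusted p = 0.0173). In Cacnb3-/- BMDCs it stood at 21.7 ± 11.4 and 58.2 ± 37.0 CPM (log2 fold change 1.41, SE 0.46, edgeR adjusted p = 0.7099), and with the replicate block it was called there too (1.38, SE 0.17, edgeR adjusted p = 0.00195), where 0.643% of all genes were. The block also called its change from 0p5h to 24h in WT (-1.25, edgeR adjusted p = 0.0229). Ccl4, an inflammatory chemokine, rose in Cacnb3-/- BMDCs from 5.14 ± 2.02 to 23.4 ± 11.3 CPM (log2 fold change 2.18, SE 0.38, edgeR adjusted p = 0.0311), and in WT it stood at 9.45 ± 4.51 and 16.9 ± 3.07 CPM (log2 fold change 0.85, SE 0.29, edgeR adjusted p = 0.653). The call of Cxcl2 was made without culture p974s846 only (adjusted p = 0.0274, against 0.064 to 0.200 without each of the others), and that of Ccl4 without p974s852 only (adjusted p = 0.0377, against 0.128 to 0.239). The most abundant ligands were Ccl5 and Ccl9, both ligands of Ccr1. At 24h Ccl5 stood at 6858 ± 1821 in WT against 3573 ± 643 CPM in Cacnb3-/- BMDCs (log2 fold change -0.93, SE 0.22, edgeR adjusted p = 0.0515). By DESeq2, 3 ligands were called from ctrl to 0p5h in Cacnb3-/- BMDCs (Ccl2, Ccl4 and Ccl7), Ccl4 from ctrl to 24h and Ccl2 from 0p5h to 24h there, and between the genotypes Ccl5 at ctrl, Ccl7 and Ppbp at 24h and Ccl7 with libraries summed. Ccl9 stood at 24h at 412 ± 87.4 and 737 ± 341 CPM (log2 fold change 0.85, SE 0.29, edgeR adjusted p = 0.0609).

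Of 27 names of genes for signalling and desensitisation of chemokine receptors, 25 matched the table, the other two being older symbols of matched genes. All 25 were tested, and 1 was called, Rgs2, which shortens G protein signals. It rose from ctrl to 0p5h in WT (89.6 ± 27.2 to 322 ± 90.2 CPM, SD, n = 5; log2 fold change 1.85, SE 0.25, edgeR adjusted p = 0.0173) and in Cacnb3-/- BMDCs (125 ± 19.5 to 414 ± 63.2 CPM; log2 fold change 1.71, SE 0.15, edgeR adjusted p = 0.00043). By 24h it was lower again, with log2 fold changes of -2.09 and -1.84 from 0p5h (p adjusted by edgeR of 0.000395 and 0.000188). The WT rise was not called without culture p974s846, p974s850 or p974s856 (adjusted p from 0.0832 to 0.200 in edgeR), and the other 3 calls were made without any 1 culture. The other 24 genes of the list were called by edgeR in no comparison, while DESeq2 also called Gng2 between the genotypes at 24h and Rgs18 there and in 2 comparisons of Cacnb3-/- sets.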

How the data were processed

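RNA-seq of BMDCs was analysed from the authors' table of raw counts per gene. Per the file header, the authors counted read 1 over exons of Ensembl release 79 (GRCm38) with featureCounts 1.5.1 and no strand option; the submitters' notes name STAR 2.4 and mm10, while the methods name GRCm39 and a later sequencer. Reads of the opposite strand can therefore be included. The labels set the genotype, and library names the set.

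Counts were fitted with edgeR 4.0.16 (R 4.3.3): TMM scaling, filterByExpr, quasi-likelihood test, Benjamini-Hochberg adjustment over all genes tested; a call needed an adjusted p under 0.05 and at least 2-fold. Fits used the groups compared only. RPKM is CPM divided by the deposited exon length. Alternatives were DESeq2 1.42.0 (and its size factors in edgeR), no filter, no fold minimum, all 30 libraries, a GC spline removed, the replicate block, each culture left out and, chosen after seeing the data, sequencing lane as a covariate. Members, gene lists and motifs were chosen with earlier results of these data known. Symbols for 38984 genes (89.4%) came from GENCODE; promoters are RefSeq's, on GRCm38.p6. The fits were tested on simulated data.

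Named genes were the 8 members; in the rest of the family each called gene and Ccr7; among ligands each called and the 2 with the highest mean CPM; among signalling genes each called; and for likeness the 3 highest r. Marker lists (neutrophil, monocyte and macrophage, dendritic cell, mature migratory dendritic cell, B, T and NK cell, basophil and mast cell, eosinophil) were summed and not tested.

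Libraries with the same culture number shifted the same way around the means of their groups, with r over 0.1 in 29 of 30 pairs (median 0.609 over 13755 genes, against -0.219 for other numbers). The pair under 0.1 was Cacnb3-/- ctrl and 24h, so the number pairs the samples in every other comparison of sets. No 2 replicates were alike within sampling noise (chi-square per degree of freedom at least 23.7 over 60 pairs). Totals of 8237393 to 32164225 counts per library leave low genes the least precise.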

Additional observations from a re-analysis of the deposited data

Results flagged for a closer look

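Of 48 groups of 5 libraries (8 receptors in 6 groups, log2 CPM), 2 held a library whose gap to the nearest other, divided by the range, passed Dixon's limit of 0.71. Chance alone gives about 1 in 20 groups. Both were the Cacnb3-/- library named ctrl of culture p974s865. Ccr2 was highest there, at 337.4 CPM (gap of 0.787 of the range), and Cxcr4 lowest, at 250.2 CPM (gap of 0.713). In the same culture Ccr2 stood at 255 CPM at 0p5h and 217 CPM at 24h, and Cxcr4 at 360.0 and 272 CPM.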

How the results depend on the processing

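Out of 8 members, edgeR called 0, 0, 0 and 0 between the genotypes at ctrl, 0p5h, 24h and with libraries summed, and DESeq2 called 1, 1, 2 and 1. At 24h, no filter on low counts and all 30 libraries in one fit each gave 2. Leaving out 1 culture gave 0 to 1 at ctrl, 0 to 2 at 24h and 0 to 2 with libraries summed. From ctrl to 0p5h in WT the count was 1, with the replicate block 2, and 0 to 0 with a culture left out. In Cacnb3-/- BMDCs it was 2, and 1 with all 30 libraries or with lane as a covariate, and 1 to 2 with a culture left out. From 0p5h to 24h it was 1 in WT, and 2 with no fold minimum, with the replicate block or with lane, and in Cacnb3-/- BMDCs it was 2, and 1 with all 30 libraries and 1 to 2 with a culture left out. The cause of these changes was not tested, beyond the smaller number of libraries in the leave-outs. From ctrl to 24h in Cacnb3-/- BMDCs, 1 of the 5 pairs of numbers did not correlate. There the replicate block in edgeR called 1 member against 0, and 138 of 12452 genes against 0. For the interaction from ctrl to 24h it also called 1 member against 0, and 16 of 13536 genes against 0. In all 16 the change was more positive in Cacnb3-/- than in WT BMDCs, which is not a statement about levels. The member was Cxcr5 in both, at 1.07 (adjusted p = 0.0137, from 0.0137 to 0.841 over the alternatives) and 1.64 (adjusted p = 0.0125, from 0.0125 to 0.99994). Besides these and Ackr3 in WT, the replicate block changed no call of a member. Over all genes, edgeR called 0, 0, 0 and 0 between the genotypes in the same order and DESeq2 146, 83, 606 and 251, and at 24h no filter gave 376, all 30 libraries 615 and leave-outs 0 to 1129 (0 to 249 at ctrl, 0 to 380 summed). For changes between sets (WT ctrl to 0p5h, WT 0p5h to 24h, then the same in Cacnb3-/- BMDCs), edgeR called 23, 82, 37 and 84 genes, the replicate block 76, 228, 82 and 367, DESeq2 51, 148, 56 and 203, and leave-outs 3 to 13, 39 to 72, 16 to 26 and 20 to 66. From ctrl to 24h it called 2 in WT and 0 in Cacnb3-/- BMDCs, against 122 and 138 with the replicate block and 30 and 48 by DESeq2. For single genes, 2305 of 2448 alternatives kept the direction and the call, 27 lost a call, 31 gained one, and 85 changed sign with no call on either side or had no adjusted p. None reversed a call. Low read counts limit Cxcr2, Cxcr5 and Ackr3 most, with 16, 28 and 11 reads in their lowest library.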

Other observations

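Marker lists of cell types that a BMDC culture could hold were summed in each library. The 10 dendritic cell markers ranged from 13170 to 35800 CPM. The 5 T cell markers reached at most 2.06 CPM, the 3 NK cell markers 0.54 CPM and the 4 eosinophil markers 9.02 CPM. The 6 basophil and mast cell markers ranged from 83.2 to 198 CPM, of which Kit, at a mean of 121 CPM, and Gata2, at 18.3 CPM, gave most. The basophil protease Mcpt8 averaged 0.88 CPM.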
